A study of Neurospora crassa OR74A with 3 samples.

Results

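Messenger RNA of Neurospora crassa mycelia lacking the cellodextrin transporter gene cdt-2 and the transporter-like gene clp1 was compared, gene by gene, with that of the parent strain that still carries both. Of 9730 genes in the deposited tables, 7165 had at least 100 reads over both libraries. The deleted genes cdt-2 and clp1 were among these and were set apart, leaving 7163 genes to compare. The genes under that minimum, 2565 in number, held 620 with no read in either library. Genes at or over it took 99.7% of the reads assigned to genes in Δ3βGΔcdt2Δclp1 and 99.6% in Δ3βG.

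Δ3βGΔcdt2Δclp1, written Δ3βGΔcdt2Δncu05853 in the labels, lacks cdt-2 (NCU08114), clp1 (NCU05853) and 3 β-glucosidase genes, gh1-1, gh3-3 and gh3-4. Δ3βG lacks the same 3 β-glucosidase genes and no other gene named in the labels, so neither strain stands for wild type. Sucrose cultures of 16 h were washed and the mycelia held for 4 h with 2% cellobiose as inducer. A single library stands for a strain, with 9808610 gene reads in Δ3βGΔcdt2Δclp1 and 8586155 in Δ3βG. The series holds 3 strains, the other being Δ3βGΔclp1, which lacks clp1 but not cdt-2. The labels describe no replicate cultures. The series asks what part CLP1, the product of clp1, plays in the induction of cellulases. No strain lacking cdt-2 alone was analysed here, so the effects of the 2 deletions cannot be told apart in this comparison.

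Neurospora crassa is a filamentous ascomycete that feeds on dead plant matter. It cuts cellulose and xylan outside the cell with secreted hydrolases and lytic polysaccharide monooxygenases (LPMOs), and takes up the resulting cellodextrins through transporters such as CDT-1 and CDT-2. Cellobiose, a disaccharide of glucose, can induce the cellulase genes where the β-glucosidases that split it are missing. The regulators CLR-1, CLR-2 and XLR-1 switch on the enzyme genes, and the repressor CRE-1 holds them down on preferred sugars.

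Differences were large and went both ways. They are given as the log2 ratio of CPM (reads scaled to library size with the TMM factors of edgeR), Δ3βGΔcdt2Δclp1 over Δ3βG. With 1 library a side there is no replicate check and no test. Intervals are exact 95% intervals of the ratio of reads and cover counting error only. At least 2-fold higher in Δ3βGΔcdt2Δclp1 were 1430 genes (20.0% of those compared), and at least 2-fold lower were 1092 (15.2%). At least 4-fold higher were 605 (8.45%) and at least 4-fold lower 309 (4.31%). A difference of at least 16-fold was reached by 171 higher and 69 lower genes. Within 2-fold lay 4641 genes (64.8%), and the median log2 ratio was -0.01, with 90% of the spread from -1.86 to 2.64. The counting interval lay wholly beyond 2-fold for 1172 of the 1430 higher genes and 773 of the 1092 lower ones. No symbol was listed for 6122 of the genes compared, among them 503 of those at least 4-fold higher and 264 of those at least 4-fold lower.

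**Figure D1:**
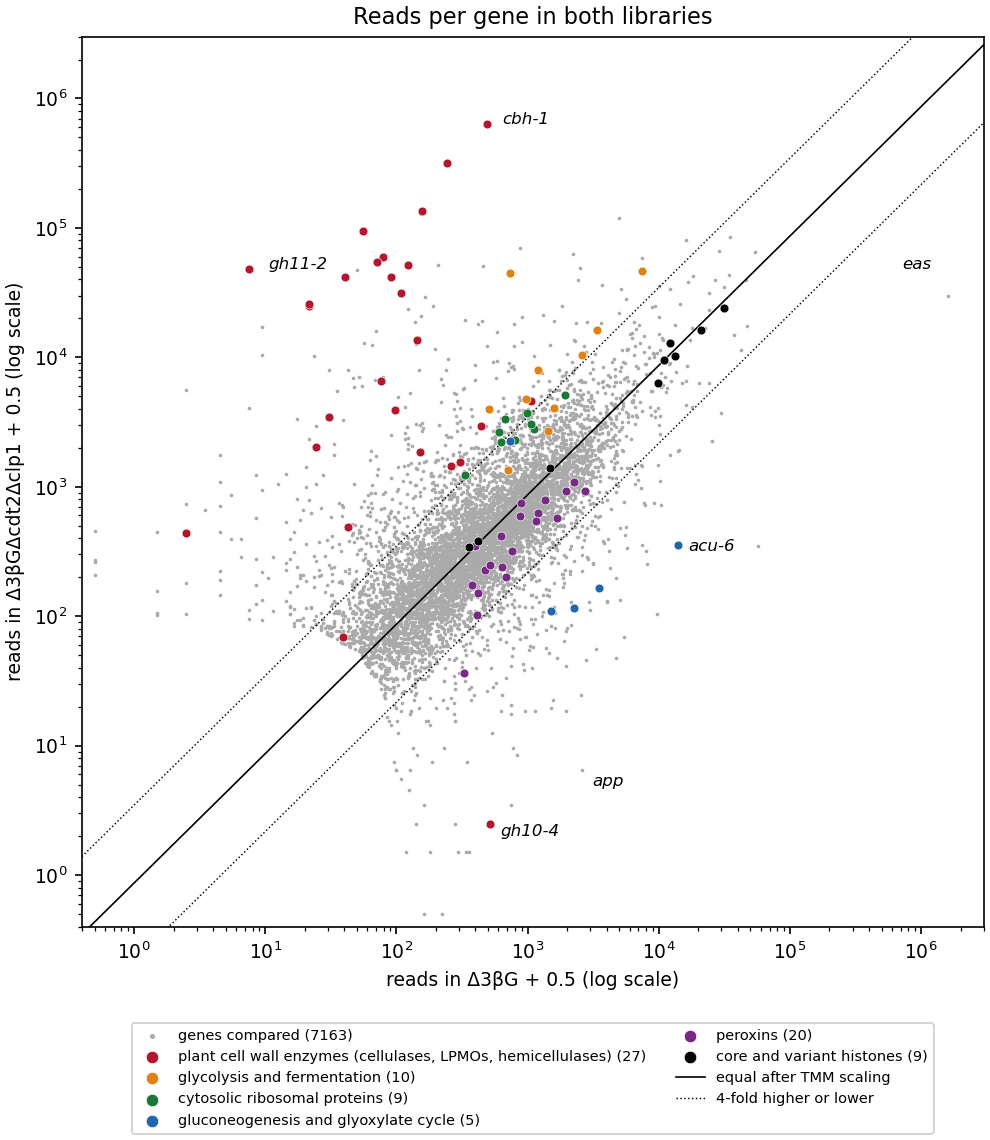
Each point is 1 of 7163 genes, with its reads in Δ3βGΔcdt2Δclp1 on the vertical axis and in Δ3βG on the horizontal axis, both as reads plus 0.5 on log scales. The solid line marks equal levels after TMM scaling and the dotted lines 4-fold differences. Most plant cell wall enzymes (red) sit above the upper dotted line, while cdh-2 lies between the dotted lines and gh10-4 below them. Of the 5 gluconeogenesis and glyoxylate genes (blue), 4 sit below the lower dotted line, and histones (black) lie near the solid line.

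The deleted loci were read first. clp1 had 0 reads in Δ3βGΔcdt2Δclp1, against 4190 in Δ3βG, at least 1210-fold lower when set against 3 reads per library, the floor used for a count of 0. cdt-2 had 9 reads in Δ3βGΔcdt2Δclp1, against 1907 in Δ3βG, 184-fold lower (96.5 to 402). gh3-3 had 21 reads and gh3-4 had 13 in Δ3βGΔcdt2Δclp1, against 15 and 5 in Δ3βG, although both strains should lack them. gh1-1 had 0 reads in Δ3βGΔcdt2Δclp1, against 18 in Δ3βG (95% Poisson interval 10.7 to 28.4). Both strains are labelled as lacking gh1-1, and the libraries differed there by more than counting error. Δ3βGΔclp1, also labelled as lacking it, had 47 reads (34.5 to 62.5). Whether the strains differ beyond cdt-2 and clp1 was not tested.

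The genes beside the deleted loci were also looked at, up to 3 on each side, chosen by place and after other values were seen. Next to cdt-2, NCU08113 had 797 reads in Δ3βGΔcdt2Δclp1, against 17 in Δ3βG, 54.1-fold higher (33.6 to 93.4). On its other side, the mismatch repair gene msh3 (NCU08115) had 3996 reads in Δ3βGΔcdt2Δclp1, against 367 in Δ3βG, 12.6-fold higher. In Δ3βGΔclp1, which keeps cdt-2, msh3 had 459 reads and NCU08113 had 11. Next to clp1, NCU05852 had 882 reads in Δ3βGΔcdt2Δclp1, against 119 in Δ3βG. NCU05854 and NCU05855, on its other side and with overlapping models in the RefSeq table, had 3501 and 2866 reads in Δ3βGΔcdt2Δclp1, against 284 and 159 in Δ3βG. Δ3βGΔclp1 lacks clp1 as well, and there these 3 genes had 140, 257 and 150 reads, close to Δ3βG. The third gene on that side, NCU05856, had 239 reads in Δ3βGΔcdt2Δclp1, against 355 in Δ3βG. Genes beside loci that both strains lack also differed. NCU04953, next to gh3-4, had 1612 reads in Δ3βGΔcdt2Δclp1, against 200 in Δ3βG, and NCU08756, next to gh3-3, had 119666 against 4984. Near gh1-1, NCU00128 had 95 reads against 1052. Over all flanks, those under the minimum included, log2 ratios ran from 1.49 to 5.71 at cdt-2 and from -0.36 to 4.37 at clp1. At the loci that both strains lack they ran from -3.26 to 1.58 at gh1-1, from 0.03 to 3.21 at gh3-4 and from 0.18 to 5.82 at gh3-3. Whether the flanks of cdt-2 and clp1 differ from the others was not tested.

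How the reads were divided among genes differed as much as single ratios. The leading gene in Δ3βGΔcdt2Δclp1 was the cellobiohydrolase gene cbh-1, with 6.50% of gene reads, and in Δ3βG it was the hydrophobin gene eas, with 18.7%. The 10 leading genes took 17.0% in Δ3βGΔcdt2Δclp1 and 23.1% in Δ3βG, and 2 genes, tef-1 and ccg-1, stood among the 10 in both. With eas left out, the 10 leading genes took 17.1% in Δ3βGΔcdt2Δclp1, against 5.95% in Δ3βG. The 100 leading genes of each library had 35 in common and the 500 leading genes 233. Of the 100 genes with most reads over both libraries, 58 were at least 2-fold higher in Δ3βGΔcdt2Δclp1, 13 at least 2-fold lower and 29 within 2-fold.

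The 12 genes with the largest gain in share took 17.7% of gene reads in Δ3βGΔcdt2Δclp1, against 0.298% in Δ3βG. Of these, 7 encode cellulose-cutting enzymes or their partners: cbh-1, gh6-2, gh6-3, gh7-1, the LPMO genes gh61-4 and gh61-5, and cellobiose dehydrogenase cdh-1. The transporter gene cdt-1 went with them, at 0.719% in Δ3βGΔcdt2Δclp1 and 0.0103% in Δ3βG. The other 4 have no symbol. NCU08756 held 1.22% of gene reads in Δ3βGΔcdt2Δclp1, against 0.0580% in Δ3βG. NCU03600 held 0.828% and 0.187%, and NCU04522 held 0.641% and 0.0259%, in Δ3βGΔcdt2Δclp1 and Δ3βG. NCU04276 held 0.526% in Δ3βGΔcdt2Δclp1 and 0.00240% in Δ3βG, and its 51558, 3964 and 206 reads in Δ3βGΔcdt2Δclp1, Δ3βGΔclp1 and Δ3βG put the strain without clp1 alone between the others.

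The 12 genes with the largest loss took 1.01% of gene reads in Δ3βGΔcdt2Δclp1, against 22.5% in Δ3βG, and without eas the other 11 took 0.706% against 3.84%. After eas came NCU09734, with 345 reads in Δ3βGΔcdt2Δclp1, against 56797 in Δ3βG, 143-fold lower (128 to 159). The plasma membrane proton pump pma-1 had 11358 reads in Δ3βGΔcdt2Δclp1, against 42687 in Δ3βG, 3.26-fold lower (3.19 to 3.32). The wall protein genes acw-3 and acw-4 and the glucan synthase gene do were 9.80-fold, 3.79-fold and 2.77-fold lower. The NAD-dependent glutamate dehydrogenase gene gdh-1 was 6.91-fold lower (6.68 to 7.15), and acu-6, for the gluconeogenic enzyme phosphoenolpyruvate carboxykinase, 34.4-fold lower. NCU00673, NCU16822, NCU06986 and NCU00935 completed the set, at log2 ratios from -2.70 to -1.11.

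**Figure D2:**
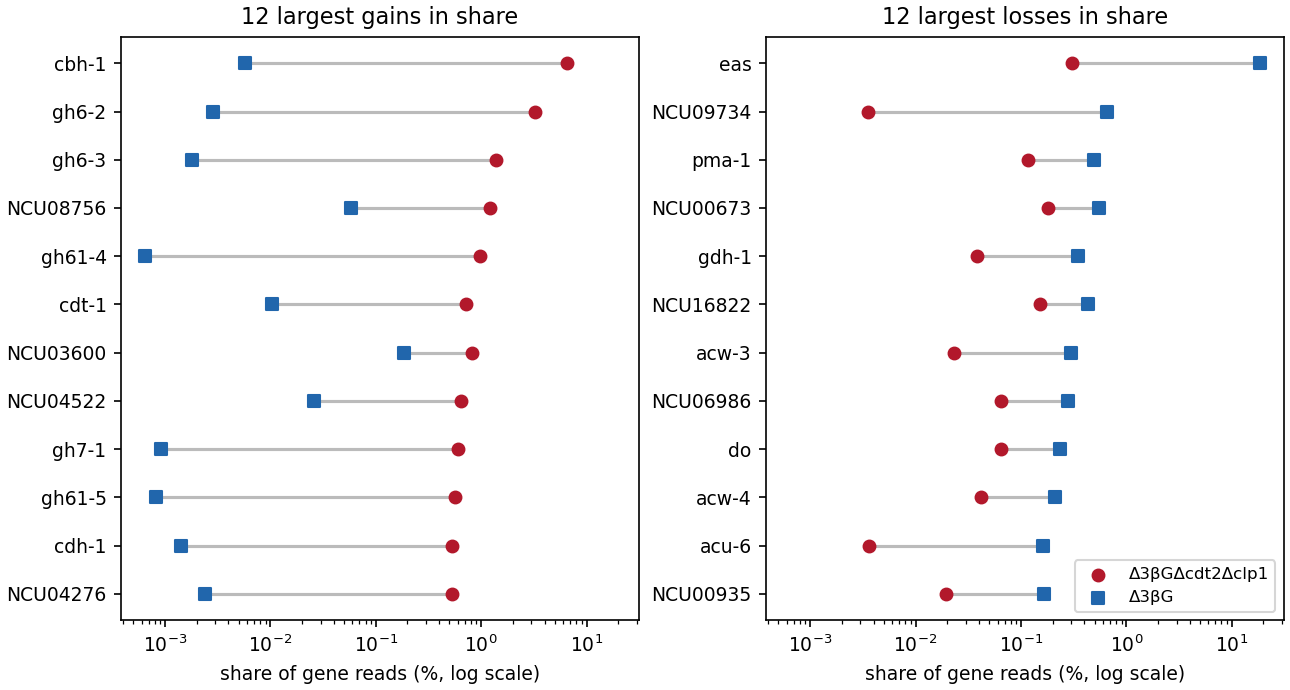
Share of gene reads (%, log scale) of the 12 genes with the largest gain (left panel) and the 12 with the largest loss (right panel), as red circles for Δ3βGΔcdt2Δclp1 and blue squares for Δ3βG. cbh-1 holds 6.50% in Δ3βGΔcdt2Δclp1 and eas 18.7% in Δ3βG, and no other gene shown passes 4% in either library.

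The enzyme genes for plant cell walls were among the highest, cellulases and LPMOs having the highest list medians. Each list below is given with the members that reached 100 reads over both libraries. Its counts can be read against the 20.0% higher and 15.2% lower and the median of -0.01 over all genes compared. Counts on library totals can be read against 1005 genes at least 2-fold higher and 1898 lower of 7163, with a median of -0.41. Of 10 cellulases in the files 7 reached the minimum, and each of them was higher by 2-fold or more; their median log2 ratio was 9.97. Such a minimum admits genes that are high in 1 library, and gh6-1, with 16 reads in Δ3βGΔcdt2Δclp1 and 14 in Δ3βG, gh7-3 with 0 in both and gh7-4 with 15 and 3 fell under it. Per length of gene, in the deposited RPKM (reads scaled by exon length and library size), cbh-1 and gh6-2 reached 20374 and 20318 in Δ3βGΔcdt2Δclp1, against 16.3 and 16.2 in Δ3βG. In Δ3βG the 10 cellulase genes together held 0.0133% of gene reads, so these ratios stand over low counts.

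LPMOs and cellobiose dehydrogenase followed, with all 10 that passed the minimum, of 13, at least 2-fold higher (9 on library totals) and a median of 8.66. Some passed through the reads of Δ3βGΔcdt2Δclp1 alone, such as gh61-2, with 441 reads there, against 2 in Δ3βG. Under the minimum, gh61-10 had 16 reads in Δ3βGΔcdt2Δclp1, against 48 in Δ3βG, gh61-11 had 9 against 18 and gh61-8 had 11 against 10. Of the 10 hemicellulase genes compared, of 11, 9 were at least 2-fold higher. gh11-2, a xylanase gene, had the highest ratio of all genes with at least 1000 reads, with 48428 reads in Δ3βGΔcdt2Δclp1, against 7 in Δ3βG, 7986-fold higher (3876 to 19864). gh10-4, of a xylanase family, went the other way, with 2 reads in Δ3βGΔcdt2Δclp1, against 520 in Δ3βG, 225-fold lower (62.0 to 1865). The list named for β-glucosidases that were not deleted holds 6 genes with a gh3 symbol, of family GH3. All lay above 0, from gh3-2 at 0.95 to gh3-6 at 10.07. Whether each encodes a β-glucosidase was not looked up. gh3-6 had 47034 reads in Δ3βGΔcdt2Δclp1, against 50 in Δ3βG.

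Regulators of these genes were higher as well. clr-2 had 8004 reads in Δ3βGΔcdt2Δclp1, against 42 in Δ3βG, 220.0-fold higher (163 to 305). vib-1, xlr-1 and clr-1 were 20.4-fold, 19.3-fold and 8.59-fold higher, while rca-1 was 11.7-fold and cre-1 2.10-fold lower. Of the sugar transporter genes with a symbol, cdt-1 was 92.3-fold higher (86.3 to 98.7), the glucose transporter gene hgt-1 2.28-fold higher (2.21 to 2.35), and sor-4 stood at -0.63. Xylose reductase xr and xylulokinase xyk-1 were 96.4-fold and 3.79-fold higher. Reads marked ambiguous in the deposited counts, 0.895% of all reads in Δ3βGΔcdt2Δclp1 and 0.844% in Δ3βG, were credited to no gene. cdt-1, xr and gh2-1 overlap a neighbouring gene model, and the use of strand in counting is not given in the sources used here. How far such overlap touched their counts was not tested. The same holds for acw-4, acw-12, adh-1, crp-10, erp38, gpr-4, gst-4, hH2A, hH2B, ilv-2, inv, kin-3, mak-1, mak-2, mek-2, ncw-5, nuo11.6, pgk, pma-1, rib-3, trp-3 and vma-7 among the list members named. Genes outside the lists were not all looked up for overlap.

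Genes that break sugar down and those that build it stood on opposite sides. For glycolysis and fermentation, 10 of 10 genes passed 2-fold on the higher side (8 when scaled on library totals) and the median was 2.49. Alcohol dehydrogenase adh-1 had 44753 reads in Δ3βGΔcdt2Δclp1, against 728 in Δ3βG, 71.0-fold higher (65.9 to 76.5). Pyruvate decarboxylase cfp was 9.06-fold higher, phosphoglycerate kinase pgk 7.76-fold, and glyceraldehyde phosphate dehydrogenase gpd-1, with 46207 reads against 7401, 7.21-fold (7.03 to 7.39). Gluconeogenesis and the glyoxylate cycle had 4 of 5 members at least 2-fold lower: acu-6, malate synthase acu-9, isocitrate lyase acu-3 and fructose bisphosphatase fbp-1, from 34.4-fold to 11.9-fold lower. The other member, acetyl-CoA synthetase acu-5, had a log2 ratio of 1.81. Starch and sucrose hydrolases were mixed, with 3 of 14 past 2-fold on each side, near the shares over all genes. On library totals 1 was higher and 5 were lower, and the median of 0.37 fell to -0.03. Invertase inv, which splits sucrose, had 681 reads in Δ3βGΔcdt2Δclp1, against 26 in Δ3βG, whereas glucoamylase gla-1, which releases glucose from starch, had 1477 against 9830.

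Among respiratory genes, complex I lay higher and the alternative respiration list was mixed. All 29 subunit genes of complex I, the NADH dehydrogenase of the respiratory chain, were above 0, from 0.09 for nuo11.6 to 1.47 for nuo14.8, with a median of 0.92 and 12 of 29 at least 2-fold higher. nuo14.8 had 3526 reads in Δ3βGΔcdt2Δclp1, against 1472 in Δ3βG, and nuo40, nearest the median, had 2894 against 1761. On library totals the median was 0.52, with 27 of 29 above 0 and 2 at least 2-fold higher. Complexes III to V and cytochrome c had 4 of 12 at least 2-fold higher, among them the ATP synthase genes atp-1 and atp-2 at 1.57 and 1.10. Cytochrome c itself, cyc-1, was the member at least 2-fold lower, with 211 reads in Δ3βGΔcdt2Δclp1, against 1873 in Δ3βG, 7.69-fold lower (6.67 to 8.91). Of the TCA cycle and pyruvate dehydrogenase genes, 5 of 20 were at least 2-fold higher, near the share over all genes, and 0 lower, with citrate synthase cit-1 at 1.42. The list median was 0.33 and fell to -0.07 on library totals.

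Mitochondrial protein import, by contrast, had 2 of 24 genes at least 2-fold lower (10 on library totals) and 0 higher, with 19 below 0 and a median of -0.53. The lowest, tim13 and tim17 of the inner membrane pathways, stood at -1.65 and -1.08, and the outer membrane channel tom40 at -0.54. Of 7 alternative respiration genes compared, of 8, 0 were at least 2-fold higher, 1 was lower (3 on library totals) and 4 lay below 0, with a median of -0.60. aod-1, the alternative oxidase, had 300 reads in Δ3βGΔcdt2Δclp1, against 224 in Δ3βG. Its regulator aod-2 had 246 against 1019, 3.59-fold lower (3.12 to 4.14). nuo14.8, nuo9.5, nuo13.4, tim13 and tim17 overlap a neighbouring gene model.

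Cytosolic ribosomal protein genes with a symbol were higher without exception. All 9 passed 2-fold on the higher side, also on library totals, within a narrow range from 1.55 for crp-5 to 2.51 for crp-10, and the median was 2.02. crp-10 had 3319 reads in Δ3βGΔcdt2Δclp1, against 670 in Δ3βG, 5.72-fold higher (5.26 to 6.22). The elongation factor gene tef-1, not on a list but among the 10 leading genes of both libraries, had 84961 reads against 35114, 2.79-fold higher. Ribosomal protein genes without a symbol are not in these counts. The proteasome, which breaks proteins down, had 29 of 30 genes within 2-fold, 0 higher, and a median of -0.17. On library totals its median was -0.57, with 29 of 30 genes below 0 and 4 at least 2-fold lower. rpn-4 was the gene outside 2-fold under TMM, with 283 reads in Δ3βGΔcdt2Δclp1, against 773 in Δ3βG. Of the COP9 signalosome, all 7 genes were within 2-fold, with a median of 0.09 that was -0.31 on library totals.

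Heat shock protein genes had 4 of 10 at least 2-fold higher (1 on library totals) and 0 lower, led by hsp60 at 1.77 and hsp80 at 1.23. The endoplasmic reticulum chaperone genes erp38 and grp78 stood at 1.31 and 0.35. Vacuolar ATPase genes had 2 of 14 at least 2-fold higher, vma-13 at 1.22 and vma-7 at 1.02, with a median of 0.36 that fell to -0.04 on library totals.

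**Figure D3:**
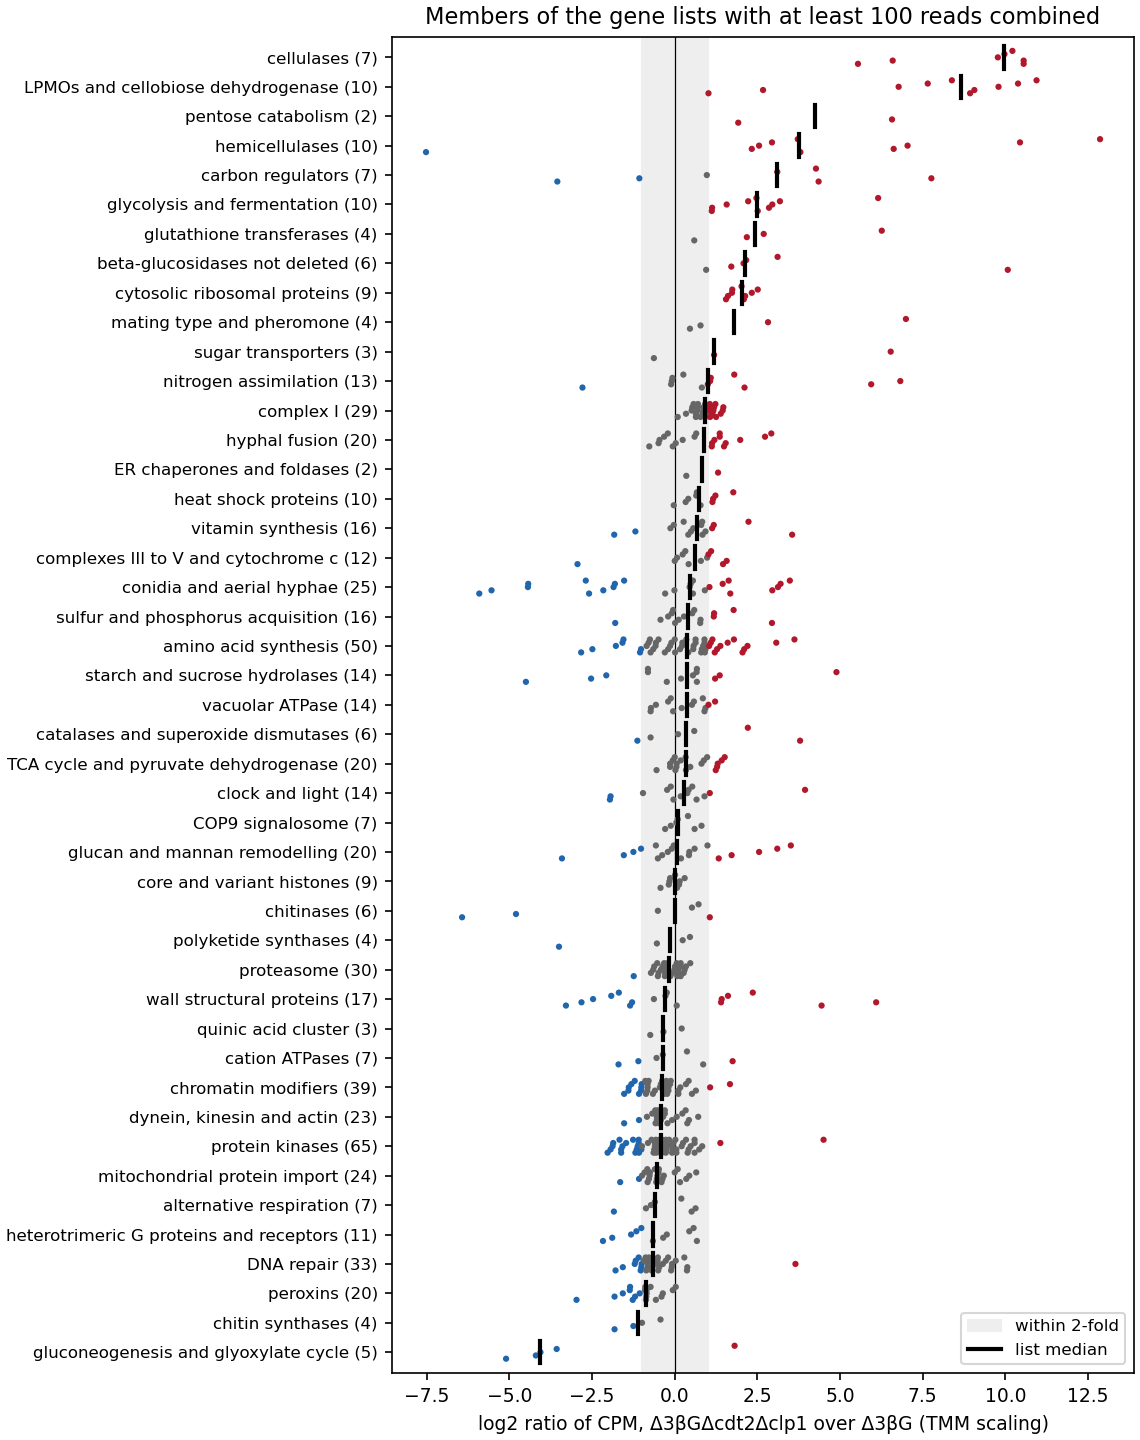
Log2 ratio of CPM (TMM scaling), Δ3βGΔcdt2Δclp1 over Δ3βG, for every list member with at least 100 reads over both libraries. Points are genes, red if at least 2-fold higher, blue if at least 2-fold lower and grey if within 2-fold (shaded band), black bars are list medians and numbers in parentheses count the members. Cellulases lie highest, with a median of 9.97, and gluconeogenesis and glyoxylate cycle genes lowest, with a median of -4.06.

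The fungus's own cell wall genes went both ways. Of 17 structural wall proteins, 6 were higher by 2-fold or more and 7 were lower by as much. acw-8 had 11511 reads in Δ3βGΔcdt2Δclp1, against 195 in Δ3βG, 68.1-fold higher (59.1 to 78.9), and acw-12 was 21.8-fold higher. acw-3 had 2260 reads against 25559, and ncw-5 had 51 against 419. All 4 chitin synthase genes compared, of 5, lay below 0, chs-4 lowest at -1.82 and chs-5 at -0.43. Among chitinases, enzymes that cut chitin, 6 of 10 reached the minimum. gh18-4 had 47 reads in Δ3βGΔcdt2Δclp1, against 4731 in Δ3βG, 87.2-fold lower (65.5 to 119), and chit-1 had 252 against 8095, 27.8-fold lower (24.5 to 31.7). The other 4 ranged from -0.51 to 1.06. Genes of glucan and mannan remodelling were split, 5 of 20 at least 2-fold higher and 4 lower, with gh76-5 at 3.51 and gh47-5 at -3.41.

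Markers of conidia, the asexual spores, and of the aerial hyphae that bear them were also split. Of 19 such markers, 18 were found in the files by symbol, and ccg-7 was not found under that symbol. Of the 18, 17 reached the minimum, of which 5 were at least 2-fold higher, 8 at least 2-fold lower and 4 within 2-fold. The summed markers took 1.59% of gene reads in Δ3βGΔcdt2Δclp1, against 20.1% in Δ3βG. Without eas the sums were 1.29% and 1.44%. The pheromone gene ccg-4 was the marker at 0 reads, in Δ3βGΔcdt2Δclp1, with 1 read in Δ3βG. The conidiation regulators fl and acon-3 had 319 and 85 reads in Δ3βGΔcdt2Δclp1, against 7927 and 2138 in Δ3βG, 21.5-fold (19.2 to 24.2) and 21.8-fold (17.5 to 27.4) lower. con-13 was 61.5-fold lower, while con-10 lay at 0.45. The 5 higher markers were ccg-14, ccg-9, ccg-6, ccg-13 and al-2, at log2 ratios of 3.2, 3.12, 1.68, 1.45 and 1.05. The median over the 17 markers was 0.45. In the wider list of 25 genes compared, ccg-16 stood highest, with 35924 reads in Δ3βGΔcdt2Δclp1, against 3709 in Δ3βG. In bulk RNA, fewer cells of a type and less RNA per cell cannot be told apart.

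Genes of hyphal fusion, by which Neurospora hyphae and germlings join, were higher or level. Of 20, 10 passed 2-fold on the higher side (5 on library totals) and 0 lower (1 on library totals), with a median of 0.88. ham-6 had 2857 reads in Δ3βGΔcdt2Δclp1, against 436 in Δ3βG, 7.56-fold higher (6.84 to 8.39), and ham-8 had 13326 against 2314, 6.65-fold higher (6.36 to 6.95). Both NADPH oxidase genes, nox-1 and nox-2, and their regulator nor-1 were among the 10, as were the MAP kinase genes mak-1 and mak-2. The kinase genes upstream of them, nrc-1, mek-2, mik-1 and mek-1, were within 2-fold. The pheromone precursor gene mfa-1 had 50828 reads in Δ3βGΔcdt2Δclp1, against 460 in Δ3βG, 128-fold higher (116 to 140), and the receptor gene pre-2 had 328 against 53. The other receptor gene, pre-1, had 60 against 40.

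Nitrogen genes held some of the widest contrasts. The NADP-dependent glutamate dehydrogenase am, which assimilates ammonium, had 7933 reads in Δ3βGΔcdt2Δclp1, against 149 in Δ3βG, 61.5-fold higher (52.3 to 72.8). The NAD-dependent enzyme gdh-1, which runs in the other direction, had 3739 reads against 29822. Nitrite reductase nit-6 had 6722 reads against 68, 114-fold higher (89.9 to 147), whereas nitrate reductase nit-3 had 167 against 55 and the regulators nit-2 and nit-4 lay at -0.09 and -0.07. Of the 13 nitrogen genes compared, of 14, 7 passed 2-fold on the higher side (4 on library totals) and 1 lower, with a median of 1.0.

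Amino acid synthesis as a whole stood close to all genes, with 13 of 50 above the 2-fold line and 7 below it (7 and 12 on library totals) and a median of 0.38 that was -0.02 on library totals. trp-3, for tryptophan synthase, and aro-6, of the aromatic pathway, were 12.3-fold and 8.45-fold higher, and all 5 trp genes compared lay above 0. The 4 ilv genes compared, of isoleucine and valine synthesis, all lay below 0, with 3 at least 2-fold lower and ilv-2 at 140 reads in Δ3βGΔcdt2Δclp1, against 1149 in Δ3βG. Vitamin synthesis genes had 4 of 16 at least 2-fold higher and 2 lower (2 and 2 on library totals), with nic-7 at 3.55 and rib-3 at -1.83. Their median of 0.68 was -0.03 at a minimum of 1000 reads. Of 16 genes of sulfur and phosphorus acquisition, 4 were at least 2-fold higher and 1 lower (2 and 1 on library totals), with cys-2 at 2.94 and cys-16 at -1.80. The higher shares of these lists under TMM were near that over all genes. The quinic acid cluster, which breaks down quinate, had 3 of 7 genes over the minimum, all within 2-fold.

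Peroxins, which build peroxisomes, were lower nearly throughout. Of 20, 19 lay below 0, 8 were at least 2-fold lower (15 on library totals) and 0 higher, with a median of -0.88. pex20 had 36 reads in Δ3βGΔcdt2Δclp1, against 329 in Δ3βG, 7.92-fold lower (5.60 to 11.5), and pex3 had 101 against 414. pex4, at 0.03, was the gene above 0, and it lay below 0 on library totals. The glyoxylate cycle genes acu-3 and acu-9 were 16.7-fold and 18.4-fold lower as given above.

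Lists of signalling, chromatin and repair genes had medians below 0. Of 11 genes for heterotrimeric G proteins and their receptors, 5 were at least 2-fold lower and 0 higher, with a median of -0.66. The receptor gene gpr-4 had 322 reads in Δ3βGΔcdt2Δclp1, against 1670 in Δ3βG, and the Gα genes gna-3 and gna-1 had 394 and 1117, against 1682 and 2873. The 65 protein kinase genes compared, of 75, had a median of -0.42, with 17 at least 2-fold lower and 2 higher (23 and 1 on library totals). stk-44 stood apart, with 2400 reads in Δ3βGΔcdt2Δclp1, against 122 in Δ3βG, 22.7-fold higher (18.9 to 27.5). Chromatin modifiers had 8 of 39 at least 2-fold lower (16 on library totals) and 2 higher, and a median of -0.38. DNA repair genes had 7 of 33 at least 2-fold lower (17 on library totals) and a median of -0.67, and the 1 at least 2-fold higher was msh3, the gene beside the cdt-2 locus. Genes of dynein, kinesin, actin and tubulin had 2 of 23 at least 2-fold lower (4 on library totals) and 0 higher, with kin-3 at -1.53. On both scalings that lower share was smaller than over all genes.

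Of 14 clock and light genes compared, 10 were within 2-fold. The clock genes frq and wc-1 had log2 ratios of 0.42 and 0.90, and the cryptochrome gene cry, which overlaps a neighbouring gene model, had 4044 reads in Δ3βGΔcdt2Δclp1, against 303 in Δ3βG. Of 6 catalase and superoxide dismutase genes, cat-3 and sod-1 were 13.9-fold and 4.62-fold higher and cat-4 was 2.20-fold lower. Glutathione transferases had 3 of 4 at least 2-fold higher, gst-4 with 568 reads in Δ3βGΔcdt2Δclp1, against 8 in Δ3βG. Among cation ATPases the sodium pump gene ena-1 was 3.35-fold higher, against the lower pma-1. The polyketide synthase gene pks-3 had 321 reads in Δ3βGΔcdt2Δclp1, against 4189 in Δ3βG, and the other 3 compared were within 2-fold.

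Some abundant genes hardly differed under the TMM scaling. All 9 histone genes lay within 2-fold, from -0.43 to 0.30, with a median of 0.01 that was -0.39 on library totals. hH2A had 9590 reads in Δ3βGΔcdt2Δclp1, against 10999 in Δ3βG, a log2 ratio of 0.01, and hH2B had 16375 against 20816. The clock-controlled gene ccg-15 had 39689 reads against 46219, and ada-1 had 10875 against 12960. NCU16460, NCU01835, NCU08847 and nfh-2 made up the 8 steadiest of the 100 genes with most reads, at -0.15 to 0.14. These 8 were picked for TMM ratios nearest 0, so their steadiness follows from the choice and the scaling. All 8 held a smaller share of gene reads in Δ3βGΔcdt2Δclp1, such as ccg-15 with 0.405%, against 0.538% in Δ3βG. Histone genes hold their level under the TMM scaling, and on library totals all 9 lay below 0.

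At the far ends stood genes near zero in 1 library, among them gh61-2 and gh10-4 of the enzyme lists. What the genes without a symbol encode was not looked up. At or under 3 reads were 14 of the genes compared in Δ3βG and 12 in Δ3βGΔcdt2Δclp1, and these were picked out after their values were seen. NCU04870 had 5608 reads in Δ3βGΔcdt2Δclp1, against 2 in Δ3βG, and NCU08785 had 17193 against 9. NCU04012, NCU07224, NCU09506 and NCU01049 had 458, 270, 264 and 208 reads in Δ3βGΔcdt2Δclp1, against 0 in Δ3βG, so that NCU04012 was at least 176-fold and NCU01049 at least 80.0-fold higher. In the other direction app, the gene of an abundant perithecial protein, had 6 reads in Δ3βGΔcdt2Δclp1, against 2579 in Δ3βG, 372-fold lower (171 to 1016). NCU05093 and NCU08711 had 0 reads in Δ3βGΔcdt2Δclp1, against 221 and 161 in Δ3βG, at least 63.8-fold and 46.5-fold lower. NCU03861, NCU06010, NCU00848, NCU05858 and NCU02969 had 18 to 104 reads in Δ3βGΔcdt2Δclp1, against 1509 to 9726 in Δ3βG.

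Genes at least 4-fold higher often lay side by side. In the gene order of the RefSeq table of assembly NC12, the gene after one at least 4-fold higher was itself at least 4-fold higher for 117 of 458 pairs (25.5%). Over all 5706 neighbouring pairs of genes compared, whatever the first gene, the second was at least 4-fold higher in 7.52%. For lower genes the same figures were 33 of 229 (14.4%) and 3.89%. Runs of 3 or more neighbours numbered 19 for higher genes, with 62 genes, and 3 for lower genes, with 11. These counts moved with the settings, to 11 higher and 5 lower runs on library totals, and to 43 and 11 at a minimum of 1 read. The longest run held 6 genes, NCU05165 to NCU05160 on chromosome IV, with 220 to 1532 reads in Δ3βGΔcdt2Δclp1, against 9 to 320 in Δ3βG. Next came 5 genes on the same chromosome, among them NCU04400 with 734 reads against 2 and NCU10107 with 446 against 4.

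Members of the plant cell wall enzyme lists, which hold only genes with a symbol, stood in 3 of the higher runs. gh61-4 lay between NCU01049, with 208 reads in Δ3βGΔcdt2Δclp1 and 0 in Δ3βG, and NCU01051, with 907 against 82. gh6-3 ended a run with NCU07192 and NCU07191, which had 12497 and 6547 reads in Δ3βGΔcdt2Δclp1, against 1491 and 1805 in Δ3βG. gh61-1 headed a run on chromosome VII. A further run, with no gene that has a symbol, held NCU07898, with 10224 reads in Δ3βGΔcdt2Δclp1, against 23 in Δ3βG. What the genes of that run encode was not looked up. Among lower runs, pks-3 and the developmental regulator gene ada-6 lay together with NCU04861 and NCU04862 on chromosome IV. ada-6 had 131 reads in Δ3βGΔcdt2Δclp1, against 4011 in Δ3βG. NCU06812 to NCU06809 on chromosome II formed the other run of 4. Some neighbours overlap in the RefSeq table, NCU05165, NCU05164 and NCU05160 of the longest run among them. How far overlap touched their counts was not tested.

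Ratios also moved with gene length. With the genes compared split by exon length into 5 groups of equal size, the median log2 ratio was 0.31 in the shortest, then 0.13, -0.05, -0.15 and -0.22 in the longest. At least 2-fold higher were 28.4% of the shortest group and 12.1% of the longest, while at least 2-fold lower were 13.5% and 15.0%. Complex I and ribosomal protein genes are short, with median exon lengths of 1346 and 1611 bases, against 1997 to 2540 bases in the middle group. Several lists with medians below 0 are long, with 4372 bases for chitin synthases, 4155 for chromatin modifiers, 3343 for protein kinases and 3317 for DNA repair. Other lists did not follow this order. Carbon regulators, hyphal fusion and nitrogen genes, at 3324, 3646 and 3146 bases, had median log2 ratios of 3.1, 0.88 and 1.0. Mitochondrial protein import and the proteasome, at 1697 and 1635 bases, had medians of -0.53 and -0.17. Unassigned reads moved too, since 91.5% of all reads fell in genes in Δ3βGΔcdt2Δclp1, against 83.2% in Δ3βG. Reads outside genes were 5.16% against 9.64%, reads with several alignments 2.48% against 6.36%, and reads marked ambiguous 0.895% against 0.844%. The part of length or RNA quality in the medians above was not tested.

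**Figure D4:**
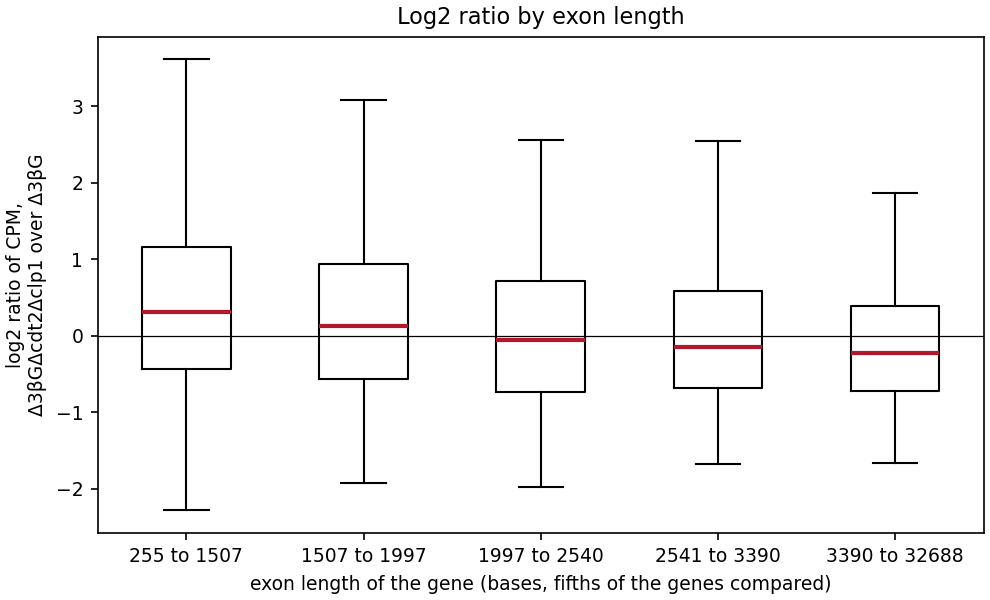
Log2 ratio of CPM, Δ3βGΔcdt2Δclp1 over Δ3βG, for the 7163 genes compared, in 5 groups by exon length in bases. Red lines are medians, boxes span the quartiles and whiskers the 5th to 95th percentile. The median goes down in every step, with 0.31 in the shortest group and -0.22 in the longest.

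The balance of higher and lower genes turned on the scaling. Under TMM 56.7% of the genes at least 2-fold apart were higher in Δ3βGΔcdt2Δclp1, under the median of ratios 56.1% and under the upper quartile 54.7%. On library totals of gene reads, which compare shares, 1005 genes were higher and 1898 lower, so that 34.6% were higher. On all reads in the files it was 41.9%, and with the 50 genes with most reads left out of the totals 39.1%. With eas and the cellulase, LPMO and hemicellulase lists left out it was 33.0%. Library totals moved the median over all genes by -0.40 on the log2 scale. Under each of the 8 scalings alike, 984 genes stood 2-fold or more higher and 1087 stood 2-fold or more lower.

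**Figure D5:**
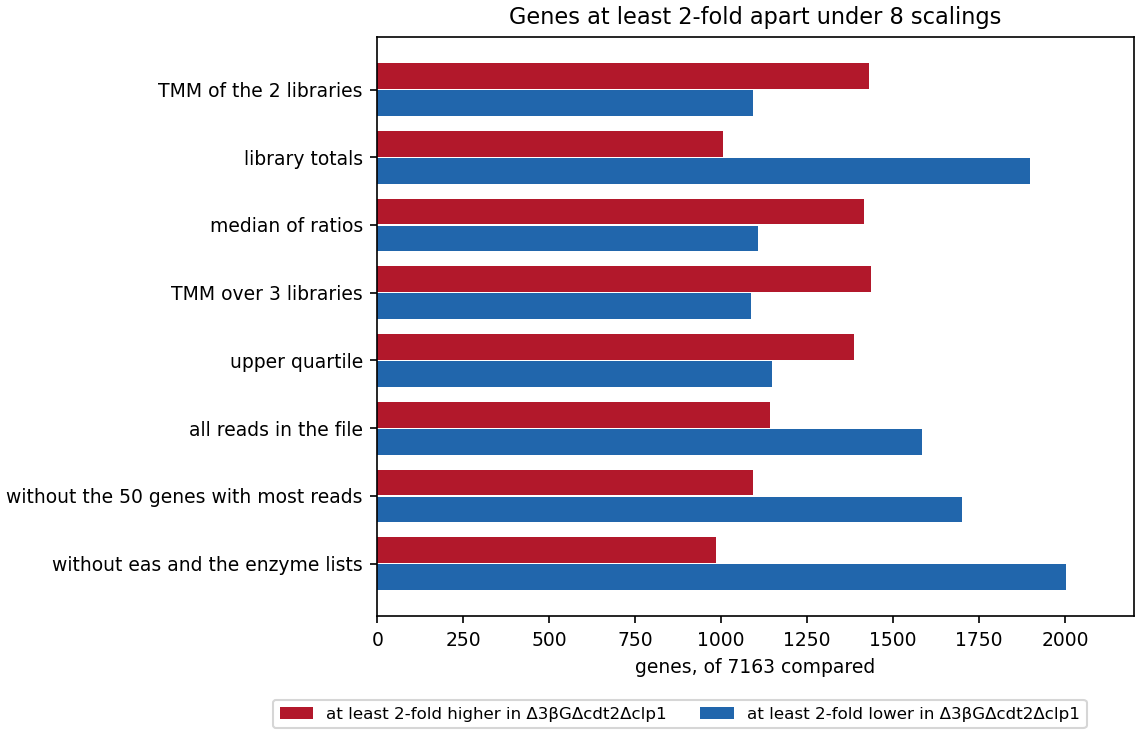
Number of genes at least 2-fold higher (red) and at least 2-fold lower (blue) in Δ3βGΔcdt2Δclp1 than in Δ3βG, of 7163 compared, under 8 scalings of the same reads. Higher genes outnumber lower ones under TMM, median of ratios, TMM over 3 libraries and upper quartile, and lower genes outnumber higher ones under the other 4.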

How the data were processed

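Messenger RNA of 1 library per strain was sequenced, per the labels from total RNA of mycelia with Illumina libraries. The authors deposited raw read counts for each gene; TopHat and HTSeq are the tools in the submitters' processing notes. Tool versions, settings, the build, the annotation and whether strand was used: not given in the sources used here. RPKM was deposited as well, and follows from the counts with every read of a table as library size (recomputed values differed by at most 1.93e-08 of the value over the 3 tables), and the headers give exon length in bases. RPKM served to set genes side by side within a library, never for ratios.

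Reads naming no gene (8.53% in Δ3βGΔcdt2Δclp1 and 16.8% in Δ3βG) were left out of library sizes. TMM factors of edgeR 4.0.16 (R 4.3.3) were 0.871 for Δ3βGΔcdt2Δclp1 and 1.15 for Δ3βG. Log2 ratios carry a prior of 0.5 reads scaled to library size. Folds carry none, with an exact 95% Clopper-Pearson interval given the total of the 2 counts. Reads are not independent molecules, so these intervals and the floor speak to counting error alone. A count of 0 was set against 3 reads per library. Genes needed 100 combined reads. Scripts were checked on simulated data. DESeq2 1.42.0 gave the median of ratios.

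Symbols and gene order came from RefSeq assembly NC12 (9729 of 9730 loci matched, 1118 with a symbol). The authors' build is not named, so no coordinates are given. Promoter sequences and motifs were not analysed here.

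Members and the 45 gene lists (715 genes in the files) were chosen with earlier results of these data known. The lists were written anew once the symbols of the RefSeq table had been read, and lists given as loci count only loci with a symbol there, a rule added after their values had been seen. 5 lists dropped and 4 redefined after their values had been seen were put back as they had stood before. Named genes are the deleted ones, 12 at each end by share, 8 at each end by ratio with at least 1000 reads, the 8 steadiest of the 100 with most reads, up to 4 members of each list with the largest ratios and the one nearest its median, and members of runs. Genes named outside this rule, such as flanking genes, further list members, tef-1, genes at or under 3 reads and the groups by exon length, were chosen after their values were seen.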

Additional observations from a re-analysis of the deposited data

How the results depend on the processing

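Of 287 named genes at least 2-fold apart, 56 came within 2-fold in some of the 10 alternative settings. The scalings shift all ratios together by at most 0.43 on the log2 scale, too little to turn such a gene round, so kept directions say nothing of stability. List medians near 0 did change sign for 12 of 45 lists, among them the TCA cycle, vacuolar ATPase, amino acid synthesis and histones. At least 2-fold lower were 1898 genes on library totals, 1700 without the 50 genes with most reads and 2002 without eas and the enzyme lists, against 1092 under TMM. At least 4-fold lower were 497 on library totals and 519 without eas and the enzyme lists, against 309. These scalings move every ratio by the same amount. A minimum of 1000 reads, which compares 3282 genes, gave 741 higher and 484 lower by 2-fold, and 357 higher and 154 lower by 4-fold. A minimum of 1 read, which compares 9105, gave 506 lower by 4-fold. Lists with a median of -1 or less numbered 2 under TMM, 5 on library totals, 6 without eas and the enzyme lists, 1 at a minimum of 1 read and 5 at 1000. Runs of higher neighbours numbered 19 under TMM, 11 on library totals, 12 on all reads, 11 without the 50 genes, 10 without eas and the enzyme lists, 43 at 1 read and 2 at 1000. Runs of lower neighbours numbered 3, and 5 on library totals, 5 without the 50 genes, 6 without eas and the enzyme lists, 11 at 1 read and 1 at 1000. With all reads in the files as denominator, the 12 largest gains held 16.2% in Δ3βGΔcdt2Δclp1 and 0.247% in Δ3βG, and the 12 largest losses 0.924% and 18.7%.

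No paired analysis was possible because each strain has 1 library. Nothing here separates the strains from the cultures they were taken from. Where Δ3βG has fewer than 10 reads, the size of a ratio is poorly fixed, as for gh11-2.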
